A study of Mus musculus with 4 samples.

Results

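The insulin-like growth factor (IGF) genes examined here were the ligands Igf1 and Igf2, the neighbouring non-coding RNA H19, the receptors Igf1r and Igf2r, and the binding proteins Igfbp3, Igfbp4, Igfbp5, Igfbp6 and Igfbp7. They were chosen by name, each matched 1 row of the deposited count tables, and they are 10 of 32285 features. Spatial RNA was captured from fresh frozen tibial muscle of Nse-Bmp4 mice, a C57BL/6 line in which a neuron-specific enolase promoter drives Bmp4, at 6 to 8 weeks of age. There was 1 section of uninjured muscle (day 0) and 1 section each from days 1, 3 and 7 after cardiotoxin injury of the muscle. All 4 groups carried the transgene, and no wild-type section was analysed here. Per the labels a group pooled 3 tibial muscles, but the sources used here do not say how these relate to a single section. With 1 section per day there was no replicate, so no p-value is given and each interval covers counting error only.

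The 4 sections held 10835 capture spots, each covering several cells, with 16777832 to 56113066 UMIs (unique molecular identifiers, counts of captured RNA molecules) per section. Day 1 was the shallowest, with a median of 6322 UMIs per spot against 12120 to 21029 in the other sections. Adult myofibre genes were all detected in every section, and the list of 12 took 25.4% of UMIs on day 0, 13.7% on day 1, 8.36% on day 3 and 15% on day 7. In the same order, the 10 monocyte/macrophage genes summed to 433, 1994, 9782 and 2244 CPM (UMIs of a gene scaled to the UMI total of the section), the 10 genes of regenerating muscle to 136, 112, 991 and 895 CPM, and the 7 fibroblast matrix genes to 7580, 1191, 6596 and 25802 CPM. The part of these shifts in the levels below was not tested. In a section, fewer cells of a type and less RNA per cell cannot be told apart.

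IGF-1 and IGF-2 are secreted growth factors that signal through the IGF-1 receptor, which activates PI3K and AKT. The IGF-2 receptor binds IGF-2 and carries it to lysosomes, and the binding proteins hold the ligands in the circulation and in the matrix and set how much reaches the receptor. In muscle the ligands are known for myoblast growth and fibre repair, and Igf2 and H19 are imprinted neighbours expressed from opposite parental alleles under shared enhancers.

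All 10 genes were placed on the mouse genome through RefSeq (GRCm38.p6, the assembly also called mm10, which the labels name). Igf2, a protein-coding gene, lies at chr7:142650768-142666816, and H19, a long non-coding RNA gene, at chr7:142575530-142578146, with 72621 bases between them. Igf1r is on the same chromosome at chr7:67952257-68233668, whereas Igf1 is at chr10:87858265-87937047 and Igf2r at chr17:12682406-12769706. Igfbp3 is at chr11:7206086-7215498, Igfbp4 at chr11:99040005-99052655, Igfbp5 at chr1:72858065-72874865, Igfbp6 at chr15:102144186-102149512 and Igfbp7 at chr5:77349240-77408045. H19 and Igf2 each contain a miRNA hairpin, and the 4 mature miRNAs are shown because they come from the 2 loci whose RNA varied most between sections. Capitals mark the seed, bases 2 to 8. The 4 seeds differ, and the miRNAs themselves were not measured by this assay.
miR-675-5p (in H19): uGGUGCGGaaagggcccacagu
miR-675-3p (in H19): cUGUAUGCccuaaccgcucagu
miR-483-5p (in Igf2): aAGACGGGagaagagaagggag
miR-483-3p (in Igf2): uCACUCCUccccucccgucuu

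RefSeq promoters of 300 bases were found for 9 of the 10 genes, 12 promoters in all and 4 of them for Igf2. They were searched on both strands for the E-box CAGCTG, which myogenic factors bind, the GC box GGGCGG and the TATA box TATAAA. Among 32851 mouse promoters of that length, 16.3% held the E-box, 35.7% the GC box and 13.6% the TATA box. The only E-box match in the promoters of these genes was 1 in Igf1. The TATA box was matched once in Igfbp4 and once in Igfbp6, and the most GC box matches were the 4 in Igfbp7. The 250 bases before a start are shown for the promoter of Igf2 with most matches and for Igfbp4, which had the largest ratio of day 7 to day 0, with GC box or TATA box matches in capitals.
Igf2, chr7:142657497-142657746, minus strand: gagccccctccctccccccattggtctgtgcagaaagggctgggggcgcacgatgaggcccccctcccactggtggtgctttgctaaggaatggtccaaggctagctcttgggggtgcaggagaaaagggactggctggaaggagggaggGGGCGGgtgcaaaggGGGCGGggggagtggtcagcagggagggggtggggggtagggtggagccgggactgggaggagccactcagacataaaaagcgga
Igfbp4, chr11:99040994-99041243, plus strand: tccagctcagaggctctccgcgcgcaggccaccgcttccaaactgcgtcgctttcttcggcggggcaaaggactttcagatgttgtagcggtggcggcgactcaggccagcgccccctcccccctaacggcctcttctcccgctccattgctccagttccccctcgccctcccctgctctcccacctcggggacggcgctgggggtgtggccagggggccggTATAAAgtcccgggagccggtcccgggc

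The first question was how the level of each gene differed between uninjured and injured muscle. The lowest level was on day 1 and the highest on day 7 for 8 of the 10 genes, the exceptions being Igf1r, lowest on day 0, and Igfbp3, highest on day 0, although with edgeR's TMM scaling the day 7 levels of Igfbp5, Igfbp6 and Igfbp7 were under those of day 0. Differences are given as ratios to day 0, and a ratio of at least 2-fold in either direction was counted. On day 1, 4 genes (Igf1, Igf2, H19 and Igfbp5) were at least 2-fold lower, against 8.11% of the 10199 features with a mean of at least 5 CPM, and 0 were higher, against 15.6%. On day 3, 4 genes (Igf2, H19, Igfbp3 and Igfbp5) were lower, against 5.22% of features, and 1 (Igfbp4) was higher, against 29.3%. On day 7, 4 genes (Igf1, Igf2, H19 and Igfbp4) were higher, against 23.8%, and 1 (Igfbp3) was lower, against 0.951%. All 10 genes passed the filter on low values. Their median log2 ratio was -0.87 on day 1, -0.14 on day 3 and 0.76 on day 7, beside 0.20, 0.56 and 0.57 for all features. Scaling by the TMM factors lowered every log2 ratio by 0.21 on day 1, 0.55 on day 3 and 0.61 on day 7. With TMM scaling 0 of the 10 genes were at least 2-fold higher on day 3, against 15.6% of features, and 1 (Igfbp4) on day 7, against 9.2%. With the same scaling 5 genes were lower on day 1, against 11.5% of features, 5 on day 3, against 12.5%, and 1 on day 7, against 4.63%, and Igfbp6 was the gene added on days 1 and 3. DESeq2 size factors gave the same genes, with shares of features between 5.03% and 15.3% in these comparisons.

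**Figure D1:**
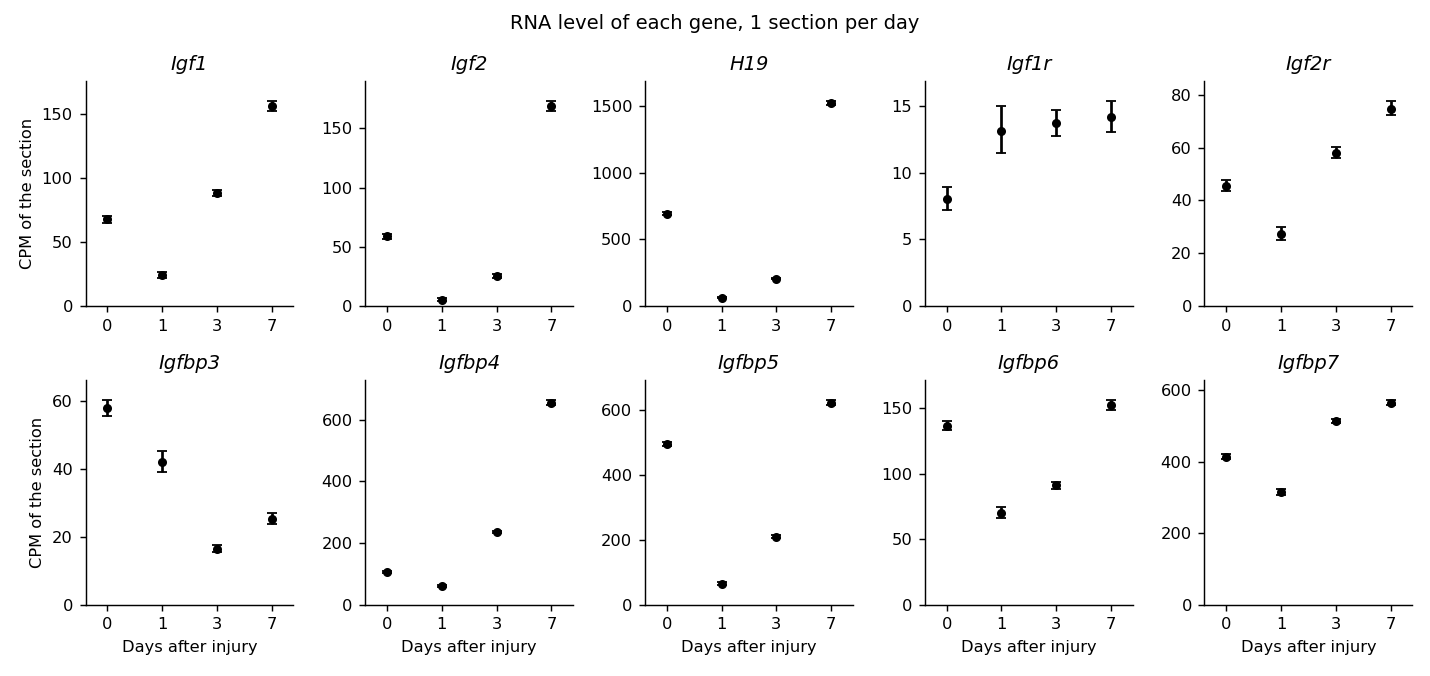
Level of each gene in CPM of the section (vertical axis, from 0, scaled per gene) on days 0, 1, 3 and 7 after injury (horizontal axis). Points are single sections and bars are exact 95% Poisson intervals, which cover counting error only; Igf2 lay at 5.30 CPM on day 1 and 169 CPM on day 7, and Igfbp3 alone was highest on day 0.

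**Figure D2:**
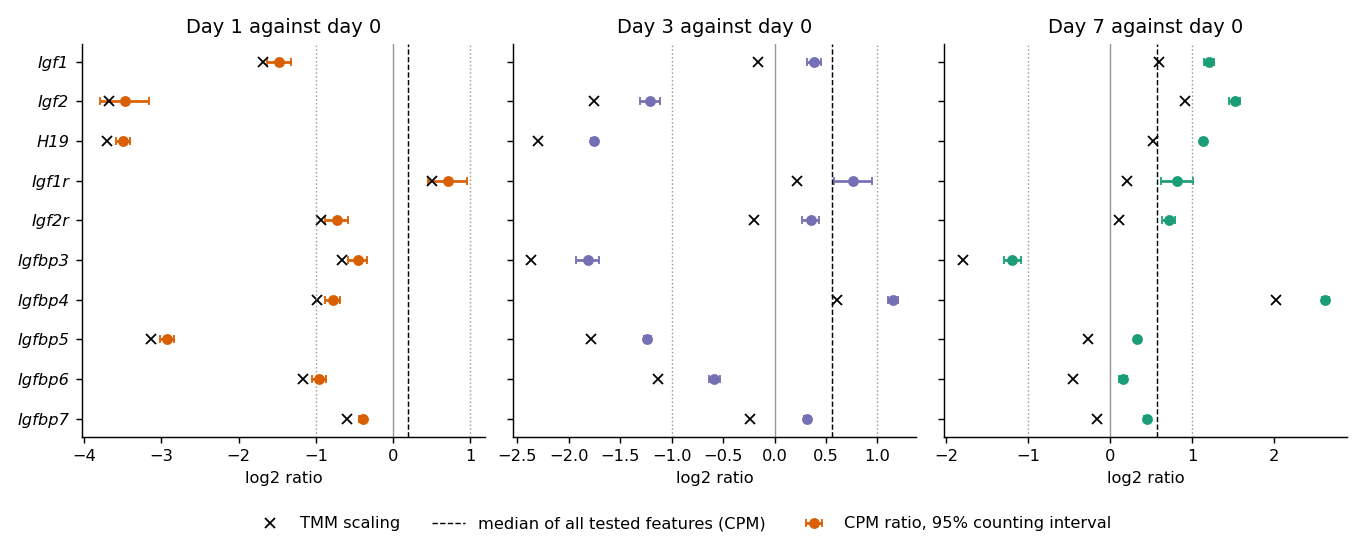
Log2 ratio of each gene's CPM to day 0 (horizontal axis) on days 1, 3 and 7, with 95% counting intervals (points and bars), the same ratio after TMM scaling (crosses), the median of all 10199 tested features (dashed line) and the 2-fold limits (dotted lines). The crosses of Igf1, Igf2r and Igfbp7 on day 3 and of Igfbp5, Igfbp6 and Igfbp7 on day 7 lie on the other side of 0 from their points.

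Igf2, the ligand known for its part in fetal growth and myoblast differentiation, gave 58.8 CPM on day 0 (2581 UMIs), 5.30 on day 1 (89 UMIs), 25.4 on day 3 (1426 UMIs) and 169 on day 7 (7060 UMIs). Day 1 was thus far below the other sections and day 7 above them, with no overlap of the intervals. Relative to day 0 it was 11.1-fold lower on day 1 (95% counting interval 8.98 to 13.9) and 2.31-fold lower on day 3 (2.17 to 2.47), and its ratio on day 7 was 2.87 (2.74 to 3.00). From day 3 to day 7 alone the ratio was 6.64 (6.27 to 7.03). The antisense gene Igf2os overlaps Igf2 over 7137 bases and had between 0 and 18 UMIs per section, and whether counting used the strand is not given in the sources used here.

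H19, whose RNA is known from embryonic and regenerating muscle, gave 694 CPM on day 0, 61.2 on day 1, 206 on day 3 and 1521 on day 7. The order of the days was that of Igf2. It was 11.3-fold lower on day 1 (10.7 to 12.1) and 3.37-fold lower on day 3 (3.30 to 3.45), and its ratio on day 7 was 2.19 (2.16 to 2.22). UMIs of H19 per UMI of Igf2, which are not set per length and serve only to compare places, were 11.8 on day 0 (11.3 to 12.3), 11.5 on day 1 (9.29 to 14.5), 8.09 on day 3 (7.66 to 8.56) and 9.01 on day 7 (8.79 to 9.24). The quotient was therefore lower on days 3 and 7 than on day 0, by much less than either RNA varied.

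Igf1, the ligand made in many tissues under growth hormone and in injured muscle by macrophages and stromal cells, gave 67.7 CPM on day 0, 24.4 on day 1, 88.5 on day 3 and 156 on day 7. It was 2.78-fold lower on day 1 (2.51 to 3.09), and its ratio was 1.31 on day 3 (1.25 to 1.37) and 2.30 on day 7 (2.21 to 2.41). The day 3 difference turned with the scaling, to a log2 ratio of -0.16 with TMM, so its direction is not settled, whereas Igf2 and H19 were below day 0 on day 3 with each scaling. The overlapping antisense gene Igf1os had 5 to 24 UMIs per section.

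The receptors varied less than the ligands. Igf1r, the signalling receptor, was low throughout, at 8.05 CPM on day 0, 13.1 on day 1, 13.7 on day 3 and 14.1 on day 7, and the 3 injured sections could not be told apart from their neighbours in that order at this depth. Its ratios to day 0 were 1.63 (1.37 to 1.93), 1.70 (1.5 to 1.93) and 1.76 (1.54 to 2.01), so it was the only gene of the group above its day 0 level on day 1. Igf2r, the IGF-2 and mannose 6-phosphate receptor, gave 45.6, 27.5, 58.2 and 74.8 CPM on days 0, 1, 3 and 7. It was 1.66-fold lower on day 1 (1.5 to 1.84), with ratios of 1.27 on day 3 (1.21 to 1.35) and 1.64 on day 7 (1.55 to 1.73), and with TMM scaling the day 3 log2 ratio turned to -0.20. Airn, a non-coding RNA that overlaps Igf2r over 28396 bases, had 69 to 411 UMIs per section against 461 to 3263 for Igf2r.

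The binding proteins followed separate courses. Igfbp4, known for inhibiting IGF action until it is cleaved by PAPP-A, gave 106 CPM on day 0, 61.5 on day 1, 235 on day 3 and 655 on day 7. Its ratio of 6.18 on day 7 (5.99 to 6.38) was larger than that of any other gene of the group, and on day 3 it was 2.22 (2.15 to 2.30). Igfbp5, a matrix-bound protein abundant in muscle, gave 494, 65.1, 209 and 621 CPM on days 0, 1, 3 and 7. It was 7.59-fold lower on day 1 (7.14 to 8.07) and 2.36-fold lower on day 3 (2.31 to 2.41), and the day 7 ratio of 1.26 (1.24 to 1.28) turned to a log2 ratio of -0.28 with TMM.

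Igfbp3, the main carrier of IGFs in serum, gave 58.0 CPM on day 0, 42.2 on day 1, 16.5 on day 3 and 25.4 on day 7. In CPM it alone of the 10 was below its day 0 level in every injured section. It was 3.52-fold lower on day 3 (3.26 to 3.80) and 2.29-fold lower on day 7 (2.13 to 2.46), and these differences were larger with TMM scaling. With that scaling Igfbp5, Igfbp6 and Igfbp7 were also below day 0 in every injured section. Igfbp6, which prefers IGF-2 over IGF-1, gave 137, 70.2, 91.1 and 152 CPM, and Igfbp7, a low-affinity binder found in vessel walls, gave 414, 315, 514 and 564 CPM, on days 0, 1, 3 and 7. Igfbp6 was 1.95-fold lower on day 1 (1.83 to 2.07) and Igfbp7 1.31-fold lower (1.27 to 1.35). The day 7 ratios of 1.11 for Igfbp6 (1.08 to 1.15) and 1.36 for Igfbp7 (1.34 to 1.39), and the day 3 ratio of 1.24 for Igfbp7 (1.22 to 1.26), turned below 1 with TMM scaling.

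To see whether the levels came from many spots or few, every spot was thinned to 2000 UMIs, which left out 17, 513, 9 and 84 spots on days 0, 1, 3 and 7. H19 was then found in 73.3% of spots on day 0 (95% exact binomial interval 71.3 to 75.1), 9.70% on day 1 (8.49 to 11.03), 26.1% on day 3 (24.5 to 27.7) and 74.4% on day 7 (72.8 to 76.0). Without thinning it was found in 2076 of 2107, 641 of 2667, 2273 of 3029 and 2898 of 3032 spots. Days 0 and 7 thus had like shares of spots, although the level of H19 in CPM was 2.19 times as high on day 7. The variance of thinned UMIs over their mean was 1.1 on day 0 and 2.78 on day 7, where 1 is the value of counting alone, and the richest spot held 80 UMIs of H19 on day 0 and 454 on day 7. Igf2 was in 10.9%, 0.989%, 3.96% and 16.8% of thinned spots on days 0, 1, 3 and 7, with a variance over mean of 1.06 on day 0 and 1.45 on day 7. Igfbp4 went from 18.5% on day 0 and 10.8% on day 1 to 36.2% on day 3 and 58.8% on day 7, and Igfbp5 was in 60.3%, 12.4%, 33.8% and 64.9%. Igf1r was in 1.64% to 2.82% of thinned spots, near the limit of this depth.

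Spots of each section were then grouped into regions of like expression, without use of the IGF genes, and described by their 5 leading genes. There were 4 regions on day 0, 7 on day 1, 9 on day 3 and 8 on day 7. On day 0 Igf2 lay between 58.1 and 62.4 CPM and H19 between 651 and 763 CPM in all 4 regions. At the scale of these regions uninjured muscle was thus nearly even for both RNAs. H19 was at 763 CPM in the region led by the slow-fibre genes Myh7, Tnnc1, Tnni1, Tnnt1 and Myl2 (564 spots). It was at 655 CPM in the one led by Actc1, Mical2, Mybph, Tceal7 and B230312C02Rik (1009 spots). Smaller sets of spots, given below, were less even for Igf2. Over the regions the binding proteins were less even, since Igfbp6 ranged from 75.0 to 257 CPM and Igfbp4 from 70.4 to 189 CPM, both highest in a region led by the fat-cell genes Nnat, Pck1, Hp, Cidec and Wfdc21 (132 spots). That region also had the highest sum of the Schwann cell list, 668 CPM against at most 103 CPM in the other regions. For Igfbp6 the interval of that region (238 to 277 CPM) just met that of the next, at 228 CPM, which was led by Retnla, Pi16, Cilp, Col14a1 and Col3a1.

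On day 1 H19 and Igf2 reached their highest levels in different regions, although most UMIs of both lay in the 2 largest ones (377 and 222 of 1027 for H19, 33 and 24 of 89 for Igf2). H19 reached 271 CPM in 88 spots led by Strit1, Myl2, Myh7, Tnnt1 and Tnnc1, genes of slow fibres, against 34.1 to 57.9 CPM in the other regions. These 88 spots held 269 of the 1027 UMIs of H19, more than the 222 of the second-largest region. Igf2 was at 2.02 CPM there, on 2 UMIs. Igf2 reached 39.3 CPM in 49 spots led by Cytl1, P2rx1, Actg2, Cnn1 and Igfbp2, which include smooth muscle genes, against at most 5.38 CPM elsewhere. The quotient of H19 to Igf2 UMIs was 134.5 in the slow-fibre spots (36.9 to 1116) and 1.08 in the smooth muscle spots (0.456 to 2.60), against 11.5 in the section. The smooth muscle spots were also highest in Igfbp4 (422 CPM) and Igfbp7 (1149 CPM). Igf1 had its highest value, 56.9 CPM (44.7 to 71.4), in 306 spots whose leading genes included Cyp2e1, Inmt, Pck1 and the fat-cell gene Cidec, though the next region, at 40.3 CPM (32.5 to 49.5), overlapped it. Igfbp5 was at 188 CPM (166 to 213) in these spots and at 180 CPM (136 to 234) in the smooth muscle spots, which could not be told apart. Igfbp3 was highest, at 109 CPM, in 461 spots led by Lars2, Thbs1, Arg1, AY036118 and Gm42418, which had a median of 1020 UMIs and were the shallowest region.

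On day 3 Igf2 was again highest, at 98.9 CPM, in a small region of vessel genes, 55 spots led by Cytl1, Cnn1, Myh11, Ackr1 and Slco2a1. This region also had the most Igfbp7 (1460 CPM), and its quotient of H19 to Igf2 was 1.84 (1.44 to 2.37), below the 6.21 to 12.4 of the other regions with more than 2 Igf2 UMIs. H19 was highest, at 348 CPM, in 343 spots led by the slow-fibre genes Myh7, Tnnc1 and Tnni1 together with Myh3 and Myl4, genes of forming fibres. It came next, at 304 CPM, in 405 spots led by Mest, Myog, Mymk, Mymx and Chrng, which include genes of myoblast differentiation and fusion. The slow myofibre list summed to 1708 and 885 CPM in these 2 regions and the regenerating muscle list to 1795 and 1985 CPM. Igf2 was next highest in these 2 regions, at 42.9 and 35.8 CPM. Igf1, Igfbp4 and Igfbp6 were highest, at 172, 931 and 785 CPM, in 71 spots led by the fat-cell genes Wfdc21, Pck1, Cfd, Hp and Cidec. For Igf1 the interval there (140.1 to 209 CPM) overlapped that of the vessel region (102 to 146 CPM). These 71 spots also had the highest sum of the tendon list, 3264 CPM against at most 1045 CPM in the other regions. Igfbp5 had its highest value, 365 CPM (349 to 382), in 434 spots led by Ddit4l, Amd1, Mylk4, Lrrc30 and Mettl21c, not clearly above the 323 CPM (289 to 360.1) of the vessel region, and was lowest, at 118 CPM, in 423 spots led by the interferon-response and macrophage genes Cxcl10, Rsad2, Spp1, Slfn4 and Ifit3.

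On day 7 both imprinted RNAs were highest in the region of newly formed fibres. The 321 spots led by Dlk1, Myh8, Sln, Myh3 and Igf2 itself had 500 CPM of Igf2 and 3284 CPM of H19, with Igf2 at most 121 CPM elsewhere. The 318 spots led by the cartilage genes Col10a1, Col9a1, Col9a3, Col2a1 and Ihh came next for H19, at 1938 CPM, but had 114 CPM of Igf2. The quotient was thus 17.0 (15.7 to 18.6) there and 6.57 (6.36 to 6.79) in the fibre region. The cartilage quotient could not be told apart from the 16.0 (13.4 to 19.2) of 189 spots led by Myh7, Myl3, Myl2, Sfrp5 and Myh2. The cartilage spots had the highest Igf1 (348 CPM) of the section and the next highest Igfbp4 (1239 CPM). Igf2r was at 115 CPM (106 to 125) in the cartilage spots and 111 CPM (104 to 118) in the fibre region, and Igfbp3 at 44.0 CPM (38.4 to 50.2) and 41.6 CPM (37.4 to 46.2), so for both genes these 2 regions could not be told apart and lay above the others. Igfbp4 (1810 CPM) and Igfbp7 (1303 CPM) were highest in 195 spots led by Wfdc21, Nnat, Cyp2e1, Cfd and Cytl1, where Igfbp5 was at 926 CPM (885 to 969) against 915 CPM (895 to 935) in the fibre region. In 728 spots led by mt-Atp8, mt-Nd4l, Mstn, Amd2 and 2310065F04Rik, 9 of the 10 genes had their lowest value of the section, with intervals that overlapped the next region's for Igf1r, Igf2r and Igfbp3. H19 was at 377 CPM there and at 366 CPM in another region, which could not be told apart.

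**Figure D3:**
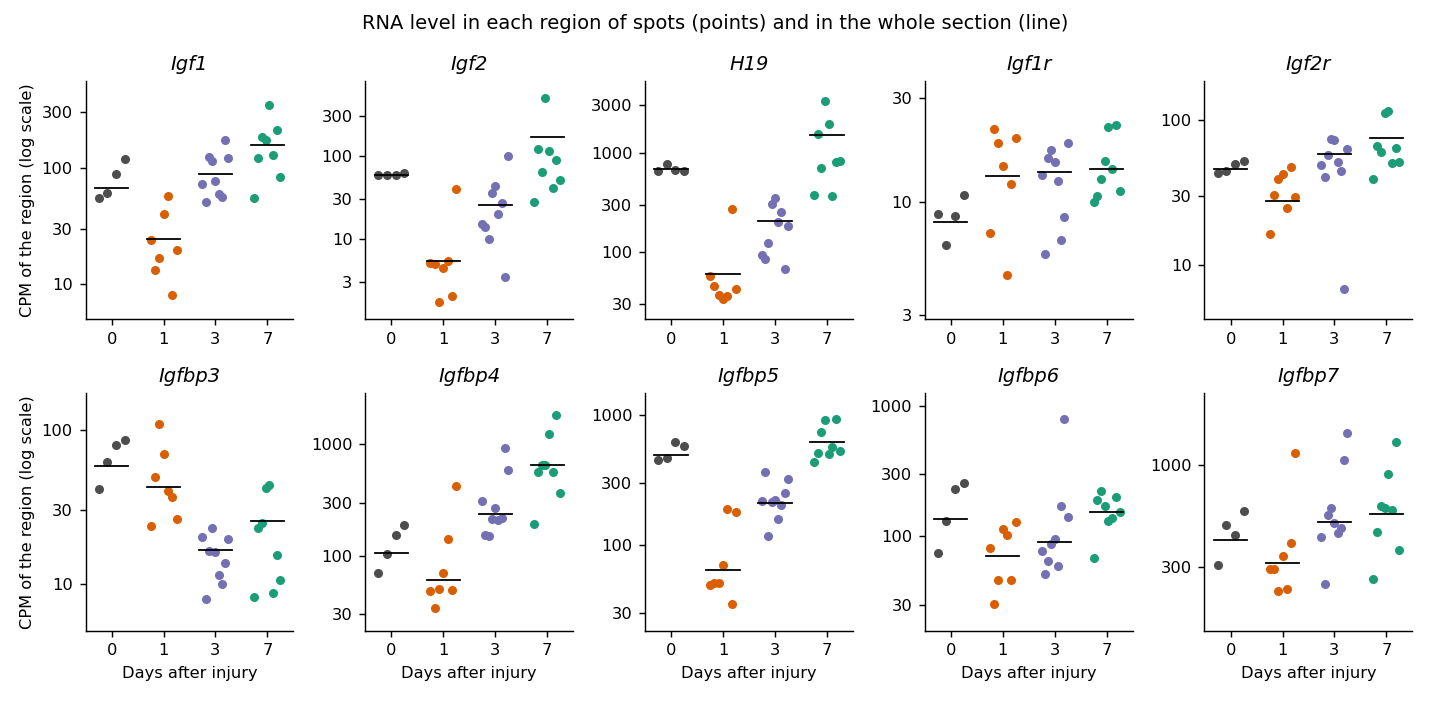
Level of each gene in every region of spots (points, CPM on a log scale) and in the whole section (line) on days 0, 1, 3 and 7; regions hold at least 20 spots and are ordered by their number. Igf2 and H19 are nearly even over the 4 regions of day 0, and single regions stand above the rest on day 1 for Igf2 (39.3 CPM) and H19 (271 CPM).

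**Figure D4:**
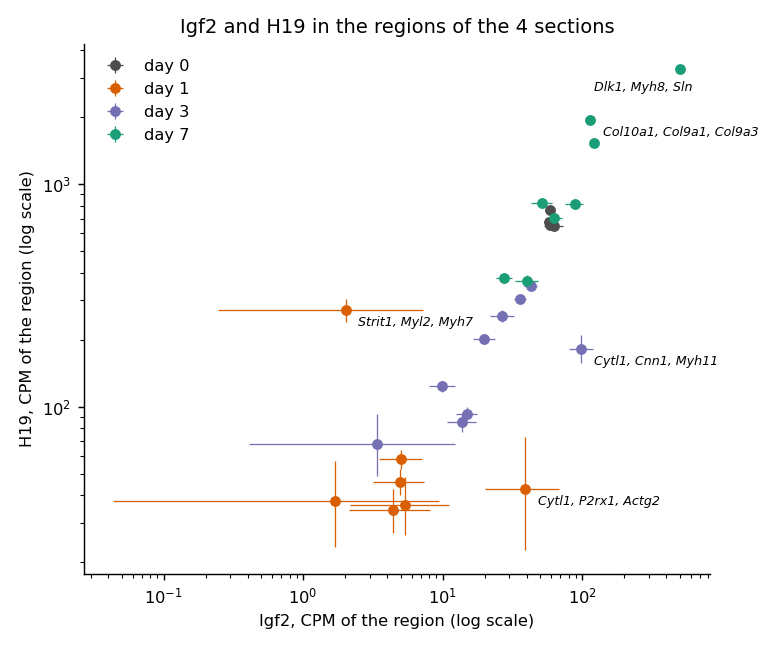
H19 against Igf2 in the 28 regions (CPM, both axes log), coloured by day, with 95% counting intervals and the first 3 leading genes of 5 regions. The regions led by Cytl1 on days 1 and 3 lie to the right of other regions of like H19 level, and the slow-fibre region of day 1 lies far to the left, on 2 UMIs of Igf2.

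The same question was put to single spots, by comparing the tenth of spots richest in a cell type's marker genes with the rest of the section. The median ratio of all 10199 features in the same spots is given beside the genes, since rich and other spots differ in myofibre RNA and in depth. In spots rich in regenerating muscle genes (embryonic and neonatal myosins, myogenin and fusion genes), the Igf2 ratio was 3.46 on day 3 (3.11 to 3.86) and 5.49 on day 7 (5.23 to 5.75), from 63.2 against 18.3 CPM and 508 against 92.5 CPM. The H19 ratio was 2.77 on day 3 (2.66 to 2.88) and 2.91 on day 7 (2.87 to 2.96). The median feature had 1.15 and 1.09, and the rich spots were deeper, with medians of 27958 against 14860 UMIs on day 3 and 24148 against 11723 on day 7. With spots of at least 4000 UMIs only, these 4 ratios stayed above 1.

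In spots rich in smooth muscle and pericyte genes the Igf2 ratio was 1.54 on day 0 (1.37 to 1.71), 6.63 on day 1 (4.12 to 10.502), 3.36 on day 3 (2.99 to 3.78) and 1.1 on day 7 (1.02 to 1.18), beside 1.22, 1.24, 1.05 and 1.27 for the median feature. The day 1 value rests on 31 UMIs in rich spots and 54 in the rest. The day 7 ratio turned to 0.826 with a total that left out mitochondrial, haemoglobin and myofibre genes, and on day 3 the ratio was 3.53 without spots rich in regenerating muscle genes. In day 0 spots rich in mesenchymal stem cell genes Igf2 was also higher, at a log2 ratio of 0.75, where the median feature had a ratio of 1.24. H19 in spots rich in slow myofibre genes had ratios of 1.07 on day 0 (1.03 to 1.11), 4.96 on day 1 (4.37 to 5.64), 2.33 on day 3 (2.24 to 2.43) and 1.55 on day 7 (1.52 to 1.58), beside 1.07, 0.919, 0.943 and 1.09 for the median feature. The day 7 ratio turned to 0.713 without spots rich in regenerating muscle genes.

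Spots rich in monocyte/macrophage genes had an Igf2 ratio of 0.450 on day 3 (0.367 to 0.547) and 2.93 on day 7 (2.79 to 3.08), beside 1.34 and 1.22 for the median feature. On day 7, 33.9% of these spots were also rich in regenerating muscle genes, against 6.95% on day 3, and without spots rich in those genes the ratio was 0.564 on day 3 (0.448 to 0.703) and 1.33 on day 7 (1.19 to 1.48). H19 in macrophage-rich spots was likewise at 0.771 on day 3 (0.729 to 0.815) and 2.01 on day 7 (1.98 to 2.05). Without spots rich in regenerating muscle genes H19 was at 0.943 on day 3 (0.887 to 1.00), an interval that held 1, and at 1.29 on day 7 (1.25 to 1.33). In spots rich in chondrogenic genes on day 7 the H19 ratio was 1.43 (1.39 to 1.46) and the Igf2 ratio 0.562 (0.507 to 0.621), beside 1.27 for the median feature. Without spots rich in regenerating muscle genes these were 2.09 (2.04 to 2.14) and 1.06 (0.951 to 1.18), so the H19 ratio was above 1 on either count, and the lower Igf2 was seen only with regenerating spots included.

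Igf1 went with connective tissue in every section. In spots rich in fibroblast matrix genes its ratio was 2.08 on day 0 (1.89 to 2.30), 3.18 on day 1 (2.47 to 4.06), 1.81 on day 3 (1.69 to 1.93) and 2.54 on day 7 (2.40 to 2.69), beside 1.18, 1.31, 1.29 and 1.38 for the median feature. In macrophage-rich spots it was 1.5, 1.80, 1.53 and 2.04 in the same order, beside 1.14, 1.34, 1.34 and 1.22, and it was 1.55 on day 3 and 1.86 on day 7 without spots rich in fibroblast matrix genes. In spots rich in adult myofibre genes it was 0.665 on day 0, 0.687 on day 1, 0.446 on day 3 and 0.406 on day 7, beside 0.835, 0.681, 0.635 and 0.698 for the median feature. On day 1 spots rich in adipocyte genes had an Igf1 ratio of 4.67 (3.71 to 5.85) and an H19 ratio of 0.350 (0.231 to 0.509), beside 1.36 for the median feature.

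The receptors did not differ from the median feature beyond counting error in spots rich in adult myofibre genes on days 1 and 3. On day 1 the ratios were 0.446 for Igf1r (0.219 to 0.814) and 0.454 for Igf2r (0.284 to 0.690), and on day 3 they were 0.458 (0.274 to 0.720) and 0.564 (0.457 to 0.689). The median feature had 0.681 and 0.635, inside all 4 intervals. In spots rich in regenerating muscle genes Igf2r had ratios of 1.44 on day 3 (1.32 to 1.57) and 1.75 on day 7 (1.62 to 1.89), and Igf1r had 1.87 on day 1 (1.26 to 2.71) on 34 UMIs in the rich spots, beside medians of 1.15, 1.09 and 1.18.

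Among the binding proteins, Igfbp7 stood higher in endothelial-rich spots of every section, with ratios of 2.10, 2.65, 1.99 and 2.31 on days 0, 1, 3 and 7, and in spots rich in smooth muscle and pericyte genes, with 1.99, 2.41, 1.65 and 2.25. Igfbp4 had ratios of 2.57, 5.36, 1.68 and 2.29 in spots rich in smooth muscle and pericyte genes, and 1.91, 4.41, 1.63 and 2.10 in endothelial-rich spots. All of these were above the medians of all features, which lay between 0.995 and 1.31 in those spots. Igfbp6 had 3.36 on day 0 (3.17 to 3.57) and 4.54 on day 1 (3.98 to 5.17) in spots rich in fibroblast matrix genes but 0.936 on day 7 (0.861 to 1.02), and in tendon-rich spots it had 1.51, 4.04, 2.32 and 1.25 on days 0, 1, 3 and 7, beside 1.04, 0.972, 1.03 and 1.27 for the median feature, so on day 7 it was not above that median. Igfbp5 was the one gene of the group with a ratio above 1 in adult myofibre-rich spots on day 3, 1.86 (1.75 to 1.98), against 1.03 on day 0, 0.954 on day 1 and 0.769 on day 7, and it had 0.542 (0.509 to 0.578) in macrophage-rich spots of day 3. Igfbp3 had 2.36 (2.13 to 2.61) in spots rich in fibroblast matrix genes on day 0, and on day 1 it had 2.25 (1.81 to 2.79) in neutrophil-rich and 1.99 (1.58 to 2.48) in macrophage-rich spots, where the median feature had 1.30 and 1.34.

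**Figure D5:**
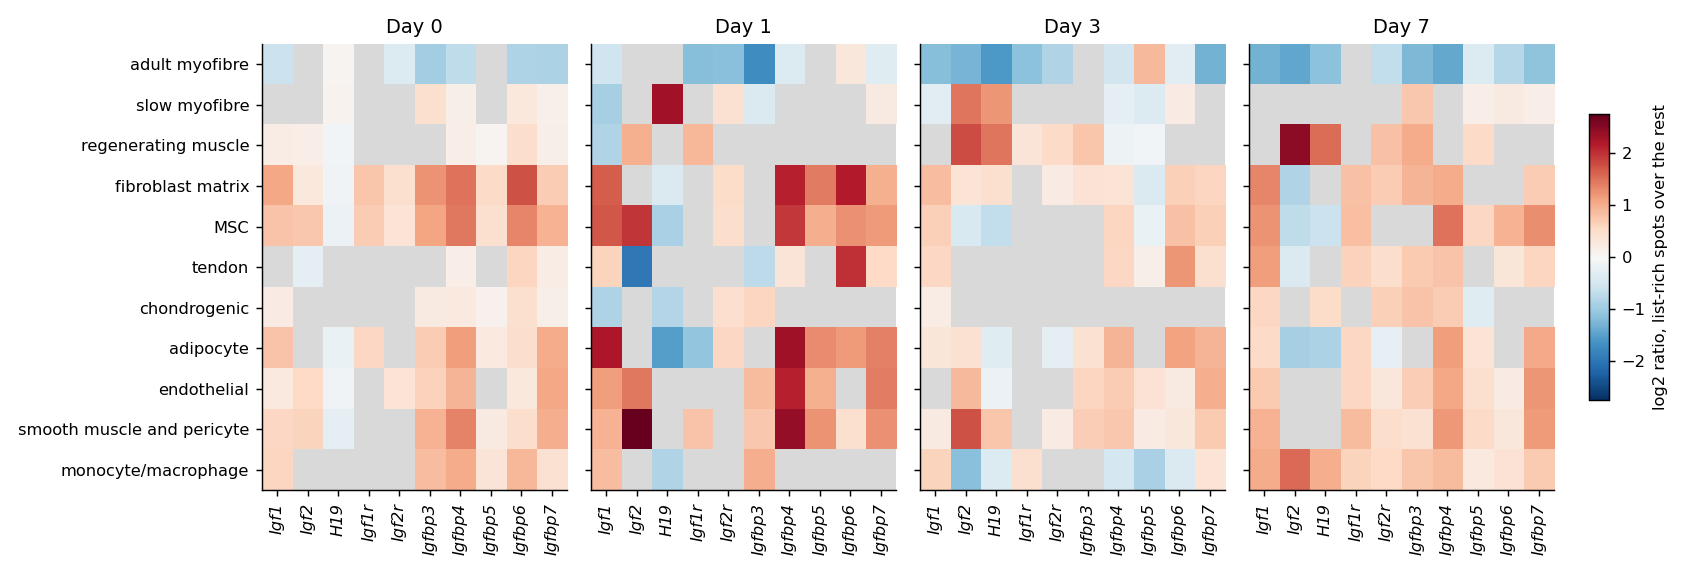
Log2 ratio of each gene's CPM (columns) in the tenth of spots richest in a marker list (rows) over the other spots of the same section, 1 panel per day; red is higher and blue is lower in the rich spots. Grey cells have a counting interval that holds a ratio of 1 or turned direction under another setting; the darkest red cell on day 7 is Igf2 in spots rich in regenerating muscle genes (2.46).

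Co-detection was examined in spots thinned to 2000 UMIs, as the share of spots with both RNAs over the product of the separate shares. For Igf2 and H19 this was 0.996 on day 0 (0.852 to 1.16), 1.40 on day 3 (1.03 to 1.90) and 1.18 on day 7 (1.08 to 1.30), and only the day 0 interval of these held 1. The calls depended on depth. The value cannot exceed 1 divided by the larger of the 2 shares. On day 7 H19 was in 56.4%, 74.4% and 88.2% of spots at 1000, 2000 and 4000 UMIs. The highest possible value thus fell with depth, so values of different depths or days are not on the same scale. On day 3 the value was 1.57 (0.873 to 2.57) with spots thinned to 1000 UMIs and 1.29 (1.08 to 1.54) with 4000, and on day 7 it was 1.34 (1.17 to 1.54) and 1.07 (0.996 to 1.15), so on each day 1 of the 3 depths gave an interval that held 1. On day 1 a mean of 2.5 spots held both, too few to read. For Igf2 and Igf2r it was 1.31 on day 7 (1.04 to 1.65) and 0.989 on day 0 (0.595 to 1.5), the day 7 value being 1.40 (0.882 to 2.05) at 1000 UMIs and 1.26 (1.1 to 1.44) at 4000. For Igf1 with Igf1r and Igf2 with Igf1r the interval held 1 in every section at all 3 depths. At 2000 UMIs means of only 0.5 to 22.45 spots per section held both RNAs of these pairs. Such wide intervals cannot show whether ligand and receptor RNA go together.

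Other genes of the pathway were taken from lists chosen by function, and the genes that make up each count are named after their values were seen. Of 15 genes of the PI3K and AKT pathway, all of which passed the filter, 1 was at least 2-fold higher on day 1 (Eif4ebp1), against 15.6% of features, and 3 on day 3 (Pik3cb, Akt1 and Eif4ebp1), against 29.3%. On day 7, 2 were higher, among them Pik3r2, against 23.8%, and 0 were lower on any day. With TMM or DESeq2 scaling only Eif4ebp1 was past 2-fold on days 1 and 3, and 0 genes on day 7. With TMM, 11.6%, 15.6% and 9.2% of features were at least 2-fold higher on days 1, 3 and 7. With a total that left out mitochondrial, haemoglobin and myofibre genes, 2 of the 15 stayed higher on day 7, against 15% of features. Eif4ebp1, a translation repressor controlled by mTOR, gave 58.2, 276, 196 and 65.0 CPM on days 0, 1, 3 and 7. Pik3r2, a regulatory subunit of PI3K, had a ratio of 2.56 on day 7 (2.34 to 2.80).

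Of 7 genes of the insulin receptor and adaptors, 3 were at least 2-fold lower on day 1 (Irs1, Grb10 and Grb14), against 8.11% of features. On day 3, 2 were lower (Irs1 and Grb14), against 5.22%, and 1 higher (Grb2), against 29.3%, and on day 7, 2 were higher (Grb10 and Grb14), against 23.8%, and 1 lower (Irs2), against 0.951%. With TMM or DESeq2 scaling none of these higher calls was left, and 4, 3 and 2 of the 7 were lower on days 1, 3 and 7, with Irs1 among them on each day. With TMM, 11.5%, 12.5% and 4.63% of features were at least 2-fold lower on these days. A total that left out mitochondrial, haemoglobin and myofibre genes kept Grb10 higher on day 7, against 15% of features. With that total Irs2 alone was lower on day 7, against 1.69%. Grb10, an imprinted adaptor that inhibits the receptors, gave 71.7, 15.8, 65.0 and 181 CPM, and Grb14, a related adaptor, 11, 2.15, 4.31 and 25 CPM. Irs1, the docking protein of both receptors, gave 78.8, 18.9, 20.2 and 56.1 CPM, below day 0 in all 3 injured sections. Igf2bp2, which binds Igf2 mRNA, had a ratio of 2.0 on day 3 (1.74 to 2.30) and was 2.41-fold lower on day 7 (1.93 to 3.03), and the day 3 ratio was under 2-fold with TMM or DESeq2 scaling. Htra1, a protease that cleaves binding proteins, was the one gene to pass among 9 other binding proteins and their regulators, at 83.5, 47.6, 48.9 and 116 CPM. In CPM it was not past 2-fold on any day, but with TMM or DESeq2 scaling it was at least 2-fold lower on days 1 and 3. A total that left out mitochondrial, haemoglobin and myofibre genes gave this call on day 3 and not on day 1.

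Of 12 other imprinted genes, 10 passed the filter, and 8 of them (Dlk1, Meg3, Rian, Cdkn1c, Plagl1, Peg3, Mest and Ndn) were at least 2-fold lower on day 1, against 8.11% of features. On day 3, 5 were lower (Dlk1, Meg3, Rian, Cdkn1c and Plagl1), against 5.22%, and Mest was higher, against 29.3%. On day 7, 4 were higher (Dlk1, Plagl1, Peg3 and Mest), against 23.8%, and 0 lower. With TMM or DESeq2 scaling the same 8 were lower on day 1 and 7 on day 3, Mest was not past 2-fold on day 3, and on day 7 Peg3 was not either and Cdkn1c was lower. With TMM, 11.5%, 12.5% and 4.63% of features were at least 2-fold lower on days 1, 3 and 7. Cdkn1c was not past 2-fold on day 7 with a total that left out mitochondrial, haemoglobin and myofibre genes. The median log2 ratios of the 10 were -1.54, -1.09 and 0.40 on days 1, 3 and 7, beside 0.20, 0.56 and 0.57 for all features. Meg3, a non-coding RNA of another imprinted cluster, gave 111, 9.48, 19.5 and 136 CPM, and Rian, of the same cluster, 29.6, 2.74, 8.00 and 24.9 CPM. Dlk1, a Notch-related protein of that cluster, gave 15.1, 2.38, 1.55 and 49.5 CPM.

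Pearson's r of log2(CPM + 1) over the 28 regions gives a description of which genes varied alike, since regions of 1 section share a library and depth. Igf2 had an r of 0.85 with Igfbp5 and 0.84 with H19, and Igf1 had 0.81 with Igfbp4 and 0.79 with Igfbp5. The lowest r within the group was -0.41, between Igfbp3 and Igfbp4. Among 5736 genes with a mean of at least 20 CPM, the 5 most like Igf1 were Ogn (0.95), Srpx, Sfrp1, Fndc1 and Sfrp2, and the 5 most like Igfbp4 were Ltbp3 (0.94), Il11ra1, Gas6, Cygb and C1ra. Those most like Igf2 were Pja2 (0.89), Gtf2i, Abcc5, Urod and Mfap2, and those most like H19 were Gpc1 (0.89), Meg3 (0.88), Mamstr, Trim35 and 5430431A17Rik. Igfbp5 was led by Nid1 (0.94), with Clec3b, Itih5, Urod and Eml1, Igfbp7 by Cavin3 (0.92), with Mprip, Eng, Heg1 and Cd200, and Igfbp6 by Lamb2 (0.83), with Entpd2, Htra3, Fbln1 and Prelp. For the receptors these were Seh1l (0.87), Itgb1, Ppp1r12a, Fkbp1a and Aebp2 for Igf1r, and Cmas (0.85), Rnf146, Tcf12, Ice1 and Zfp445 for Igf2r. Igfbp3 had no close match, with Pde2a at 0.59 followed by Bcl2l1, Rbm18, Ado and Pdgfb. When the regions of 1 day were left out, between 0 and 5 of a gene's 5 names recurred, so the names depend on the sections included.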

How the data were processed

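The authors deposited unnormalized UMI counts for each gene in each spot, made with Space Ranger (version 1.2.0 per the file headers, another version in the methods of the study) on mm10 per the labels. Whether counting used the strand, and how the 3 mixed muscles map onto a section, is not given in the sources used here. Each sample was 1 section. The 10 genes, the 19 marker lists and the 5 pathway lists were chosen with earlier results of these data known. From each pathway list, up to 3 genes with the largest absolute log2 ratio to day 0 were named with values, among genes with a mean of at least 5 CPM. Per member, the 5 genes with the highest r over regions were named. Some genes that these rules name are not reported here.

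Counts were summed per section or set of spots and divided by the total (CPM), with exact Poisson intervals, and ratios had exact conditional binomial intervals, all at 95% and covering counting error only. Fewer than 3 UMIs were entered as 3 in ratios between sections. Features with a mean of at least 5 CPM over the sections were compared. No test across sections was possible with 1 section per day. The sections had 43871586, 16777832, 56113066 and 41832640 UMIs at days 0, 1, 3 and 7. Between 1539 and 2311 of 4078 array barcodes recurred in any pair of sections, since barcodes mark array positions, and 0 of them had equal totals.

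Spots were thinned to 2000 UMIs in 20 draws (seed 1), with shallower spots left out. Spots rich in a list were the 10% of spots of at least 2000 UMIs with the largest share of UMIs in that list. Regions were Leiden clusters of 1 section, from counts scaled to 10000 and log transformed, with 2000 variable genes, 30 principal components, 15 neighbours and resolution 0.5, without the IGF, list, mitochondrial and haemoglobin genes, keeping at least 20 spots. Leading genes had at least 50 CPM and the largest ratio to the rest of the section. A spot covers several cells. Doublets were therefore not called, and regions are not cell types. Spot positions, images and single-cell data were not used here.

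Other settings were size factors of DESeq2, TMM factors of edgeR, a reduced total (without myofibre, mitochondrial and haemoglobin genes), spots of at least 1000 UMIs, the mean of spot CPM, a minimum of 1 CPM or none, thinning to 1000 or 4000 UMIs, the top 20% of spots, spots of at least 4000 UMIs, and resolution 1. Co-detection of pairs was computed at all 3 thinning depths. Leaving out spots rich in another list was chosen after seeing the data. The ratios between sections, their intervals and the 2-fold calls were first tested on simulated section sums. The calculations on spots, regions and sequences were not tested in this way. Factors came from DESeq2 1.42.0 and edgeR 4.0.16 in R 4.3.3. Regions came from Scanpy 1.11.5 with leidenalg 0.10.2, and all else from SciPy 1.17.1, NumPy 2.4.6 and pandas 2.3.3 in Python 3.11.15, with plots by matplotlib 3.10.9. Sequences and positions came from RefSeq tables of GRCm38.p6.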

Additional observations from a re-analysis of the deposited data

How the results depend on the processing

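With 1 section per day, no section could be left out of a group. No paired analysis was possible because each group held 1 section. The number of genes at least 2-fold higher at day 3 went from 1 to 0 with TMM, DESeq2 size factors or the reduced total (no myofibre, mitochondrial or haemoglobin genes). At day 7 it went from 4 to 1, 1 and 2 with these settings, and to 1 with the mean of spot CPM. With no filter on low features, the share of features at least 2-fold higher at day 1 was 38.4% and the share lower at day 7 was 1.73%. TMM, DESeq2 factors and the reduced total turned the log2 ratios at day 3 of Igf1 (-0.16, -0.17 and -0.0071), Igf2r (-0.20, -0.21 and -0.043) and Igfbp7 (-0.24, -0.25 and -0.081), and at day 7 of Igfbp6 (-0.45, -0.48 and -0.11). TMM and DESeq2 factors turned those at day 7 of Igfbp5 (-0.28 and -0.30) and Igfbp7 (-0.16 and -0.19). The other log2 ratios to day 0 kept their direction under every scaling tried, spots of at least 1000 UMIs and the mean of spot CPM. At resolution 1, 25 of 40 ratios of a gene's highest region to the rest of its section left their main interval. A highest region lies above the rest by construction, so these ratios could not test direction. Whether the same spots stayed highest was not examined. Among 81 ratios of rich spots, 0 turned with the top 20% of spots or with spots of at least 4000 UMIs, and 1 with the reduced total (Igf2 in smooth muscle and pericyte-rich spots at day 7, 0.826). Without spots rich in regenerating muscle genes, 2 of 28 turned, H19 in slow myofibre-rich spots (0.713) and Igf2 in chondrogenic-rich spots (1.06), both at day 7. Depth limits Igf2 at day 1 (89 UMIs) and Igf1r most.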

Other observations

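Low-level genes of the family that are not among the 10 had patterns of their own. Igfbp2, another IGF binding protein, had 4 UMIs on day 0, 54 on day 1, 437 on day 3 and 83 on day 7 (0.0912, 3.22, 7.79 and 1.98 CPM). On day 1, 37 of its 54 UMIs lay in the 49 spots led by Cytl1, P2rx1, Actg2, Cnn1 and Igfbp2, where it reached 121 CPM. Pappa, the protease that cleaves Igfbp4, had 21, 5, 67 and 227 UMIs on days 0, 1, 3 and 7 (0.479, 0.298, 1.19 and 5.43 CPM), with a ratio of 11.3 on day 7 (7.24 to 18.7). On day 7, 116 of its 227 UMIs lay in the 318 spots led by the cartilage genes Col10a1, Col9a1, Col9a3, Col2a1 and Ihh, where it reached 23.0 CPM. Igfals, which stabilises the circulating IGF complex, had 4.58, 1.79, 1.02 and 1.6 CPM, lower than day 0 in each injured section. Igfbp1 had 0 UMIs in all 4 sections. These genes were under the filter on low values and were named after their values were seen.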
